A study of Mus musculus with 12 samples.

Results

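The endoplasmic reticulum (ER) folds secreted and membrane proteins with the help of chaperones and disulfide isomerases. When unfolded proteins build up, 3 sensors in its membrane, encoded by Ern1 (IRE1α), Eif2ak3 (PERK) and Atf6, start the unfolded protein response. IRE1α splices the mRNA of the transcription factor Xbp1, ATF6 is cut to release a transcription factor, and PERK slows translation and favours translation of Atf4. Targets of these arms include ER chaperones, the retrotranslocation machinery that sends misfolded proteins to the proteasome (ER-associated degradation) and the stress factors Ddit3 and Atf3. Calreticulin and ERp57, encoded by Calr and Pdia3, also take part in loading peptides onto MHC class I molecules, which IFNγ is known to induce.

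Transcripts of 32 genes of this system were followed in the table of 22298 genes, chosen by symbol from a list of sensors, chaperones, folding enzymes, degradation factors and translocon subunits. All 32 symbols were in the table, and 31 passed the filter on low counts. Derl3, a derlin of ER-associated degradation, was removed by it, with 2 to 9 counts in each library and at most 0.396 CPM (counts scaled to a common library total). The cells were 4T1, a mammary carcinoma line from BALB/c mice, carrying 1 of the Cop1 guides sgRNA1 and sgRNA2 or a control guide against Rosa26. Each population was given IFNγ at 20 ng/ml for 24 hours or vehicle, with 2 libraries in each of the 6 groups, and the study examined how Cop1-loss and Cop1-intact cells respond to the cytokine. Cop1 encodes an E3 ubiquitin ligase. The sources used here give neither the cut sites of the guides nor whether each population is a pool or a single clone, nor whether the replicates came from separate cultures. The p-values therefore measure only the spread between these libraries, which may be technical, and a property of a population cannot be told apart from an effect of its guide.

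Libraries held 19378070 to 32609717 gene counts, and the 32 genes together took 0.709% of them in the lowest library (sgRNA2 vehicle) and 0.838% in the highest (sgRNA1 IFNγ). Cop1 (chromosome 1, 159232320 to 159347640 of GRCm38, as for all gene positions, by GENCODE M21) stood at 59.1 to 63.1 CPM in sgRNA1 libraries and 32.3 to 34.7 CPM in sgRNA2 libraries, against 80.4 to 98.2 CPM in Rosa26 libraries, with CPM counted against the TMM-scaled library total. All 8 epithelial markers were tested, including Krt8, Krt18 and Epcam, and their summed level was 4337 to 4369 CPM in Cop1-guide and 4007 to 4122 CPM in Rosa26 vehicle libraries, and 3708 to 3790 CPM in Cop1-guide and 3449 to 3455 CPM in Rosa26 IFNγ libraries. Of the leukocyte markers, Cd3e, Cd4, Cd8a, Ms4a1 and Adgre1 had no count in any library, Ptprc reached at most 0.26 CPM, and the sum of the list was 20.6 to 25.0 CPM in Cop1-guide and 28.9 to 33.5 CPM in Rosa26 libraries, nearly all from Cd14 and Cd68. The sum of 11 fibroblast and endothelial markers was 17.1 to 24.7 CPM in Cop1-guide and 19.3 to 29.7 CPM in Rosa26 libraries, mostly Pdgfra. Of the 5 plasma and secretory cell markers, Mzb1 and Jchain reached at most 0.05 CPM, and the list's sum of 291 to 381 CPM in Cop1-guide and 273 to 318 CPM in Rosa26 libraries was carried by Sdc1, which epithelial cells also express. The part of these marker differences in the results was not tested. In such bulk samples fewer cells with a transcript and less of it per cell cannot be told apart.

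Levels per length differed widely within the system. In Rosa26 vehicle cells Hspa5, which encodes the Hsp70 chaperone BiP, had the highest level at 344 CPM per kilobase of annotated exon, followed by Calr (calreticulin) at 273, P4hb (protein disulfide isomerase) at 259, Pdia3 at 176 and Canx (calnexin) at 159.9. The sensors were low on the same scale, with Atf6 at 12.2, Ern1 at 7.64 and Eif2ak3 at 4.35. Xbp1 stood between them at 19.9. Gene counts do not separate its spliced from its unspliced form.

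**Figure D1:**
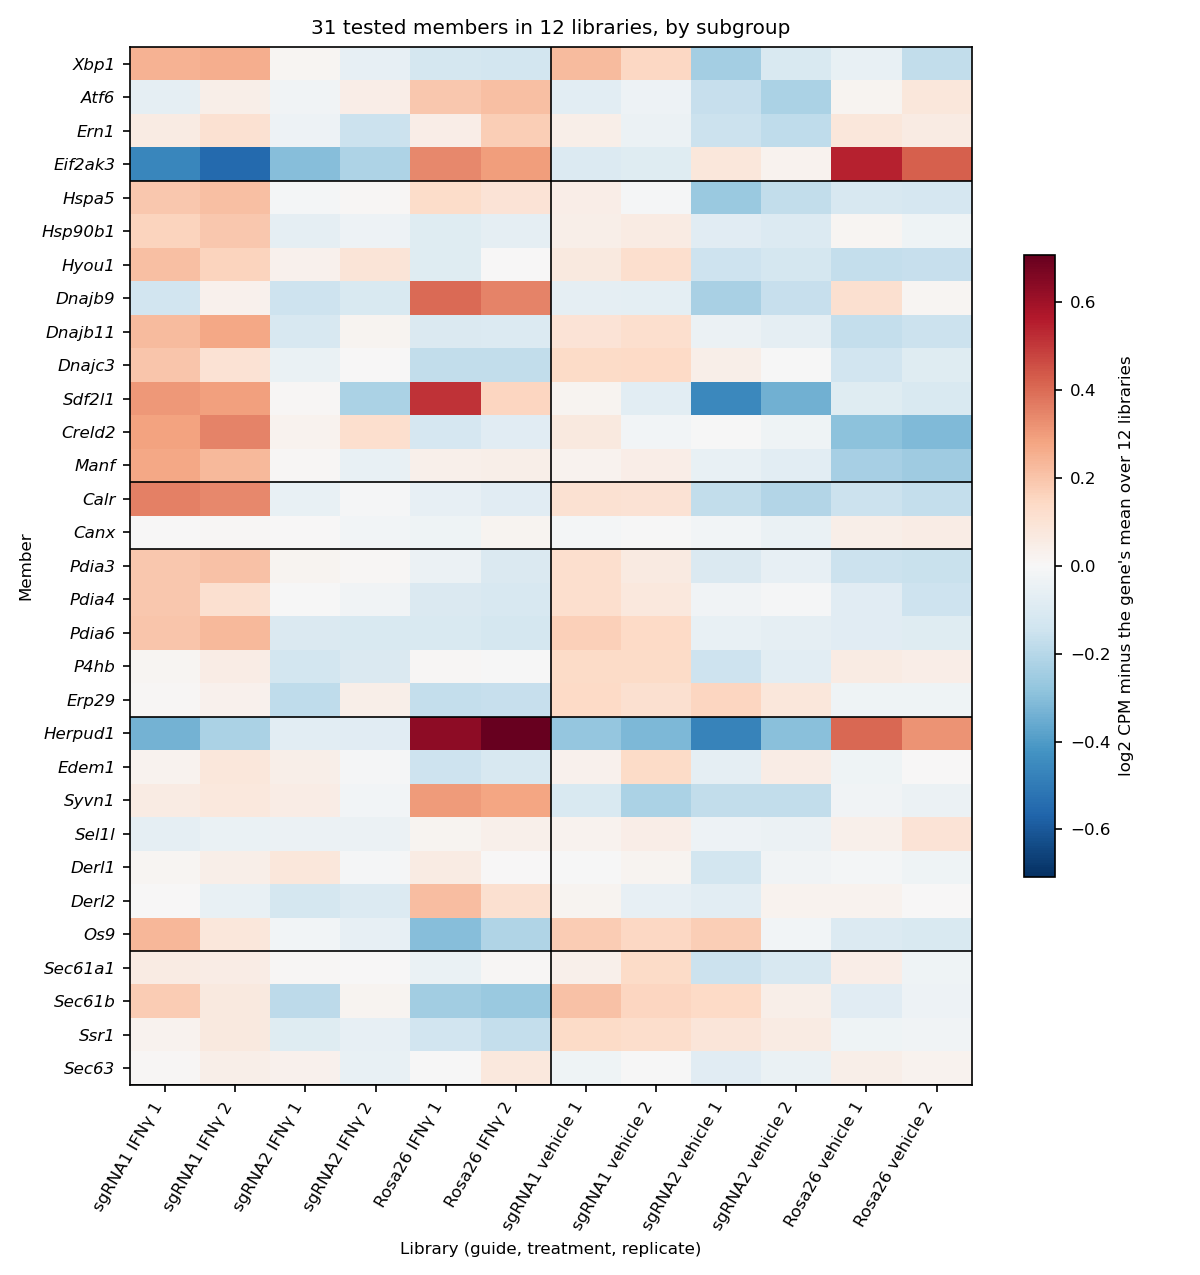
Rows are the 31 tested genes by subgroup and columns the 12 libraries, IFNγ left of vehicle. Colour gives each library's log2 CPM minus the gene's mean over the 12 libraries, red above and blue below it. Herpud1 is high in the 4 Rosa26 libraries and low in the 8 Cop1-guide libraries, Eif2ak3 is low in Cop1-guide IFNγ libraries, and Hspa5, Hsp90b1, Hyou1, Dnajb11, Creld2, Manf and Calr are highest in the sgRNA1 IFNγ libraries.

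Cop1 loss in vehicle came with lower Herpud1 and Eif2ak3 and with small increases of chaperones and disulfide isomerases. Herpud1 fell by 38.5% and Eif2ak3 by 29.7% on the mean of the guides. Creld2 (by 23.7%), Manf (by 17.1%), Dnajb11, Dnajc3, Hyou1, Pdia3, Pdia4, Pdia6 and Erp29 rose by less than 25%. Hspa5 was not called on the mean of the guides. In edgeR's quasi-likelihood fit, with p adjusted by Benjamini-Hochberg over 11904 genes, 13 of the 31 tested genes were higher, which is 41.9% against 16.6% of all genes tested, and 5 were lower, which is 16.1% against 19.2%. Their median log2 change was 0.02 against -0.01 over all genes tested, and their median log2 CPM was 6.78 against 5.08, so that they were counted more deeply than most genes.

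With IFNγ the comparison of Cop1-loss with Rosa26 cells gave 15 higher and 7 lower genes. That is 48.4% higher against 19.8% of all genes tested and 22.6% lower against 20.7%, with a median log2 change of 0.08 against 0.00. In vehicle, sgRNA1 alone against Rosa26 gave 16 higher (51.6%, against 15.8% of all genes tested) and 2 lower (6.45%, against 17.5%), and sgRNA2 alone gave 8 higher (25.8%, against 13.5% of all genes tested) and 10 lower (32.3%, against 15.7%). With IFNγ, sgRNA1 alone gave 17 higher (54.8%, against 18.9% of all genes tested) and 6 lower (19.4%, against 19.3%), and sgRNA2 alone gave 8 higher (25.8%, against 16.6% of all genes tested) and 10 lower (32.3%, against 16.2%). Both guides share the Rosa26 libraries. The vehicle and IFNγ comparisons use different libraries of the same guide populations, so a fixed difference of a population would recur in both. Called higher in both were 12 genes (Calr, Creld2, Dnajb11, Dnajc3, Erp29, Hyou1, Os9, Pdia3, Pdia4, Pdia6, Sec61b and Ssr1), or 92.3% of those higher in vehicle and 80% of those higher with IFNγ. Over all genes tested the same shares were 71.8% and 60.03%. Called lower in both were 3 genes, Atf6, Eif2ak3 and Herpud1, or 60% and 42.9%, beside 66.0% and 61.1% over all genes tested.

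**Figure D2:**
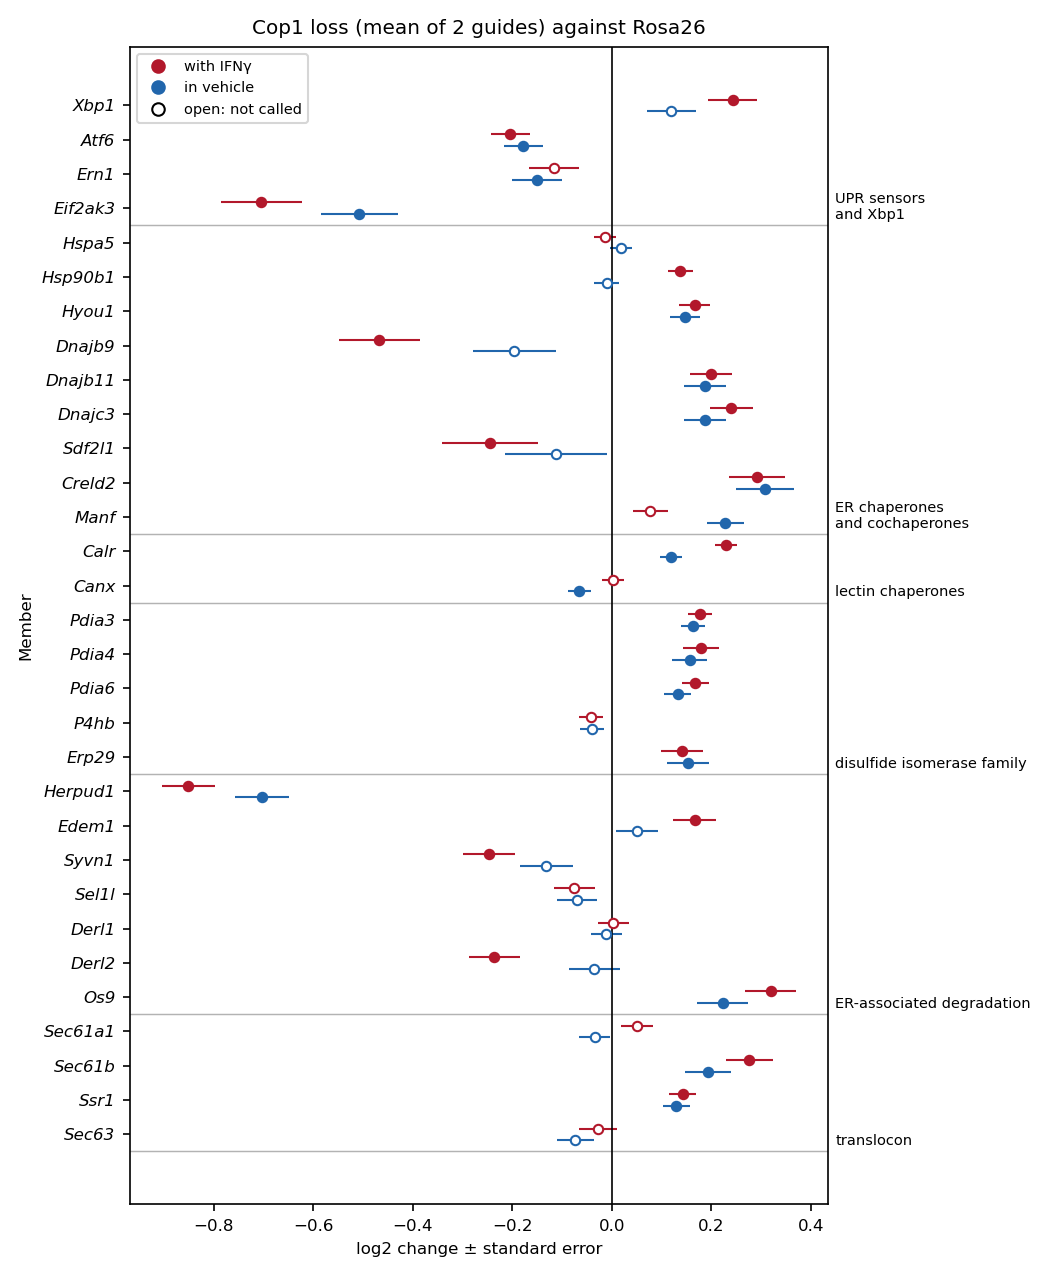
Each row is a tested gene, and the x axis is the log2 change of Cop1-loss cells (mean of the 2 guides) against Rosa26 cells, with its standard error. Red points are with IFNγ and blue points in vehicle, filled where called. Herpud1 and Eif2ak3 lie farthest to the left in both treatments, and called increases stay below 0.33.

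Among the sensors, Eif2ak3 (chromosome 6, 70844515 to 70905245), which encodes PERK, fell in both treatments. It had 17.5 and 17.6 CPM in the sgRNA1 vehicle libraries and 19.8 and 19.0 CPM in the sgRNA2 vehicle libraries, against 27.3 and 25.1 CPM in the Rosa26 vehicle libraries. With IFNγ it had 13.5 and 12.7 CPM in the sgRNA1 IFNγ libraries and 15.2 and 16.1 CPM in the sgRNA2 IFNγ libraries, against 23.7 and 23.0 CPM in the Rosa26 IFNγ libraries. In each treatment all Cop1-guide libraries lay below both Rosa26 libraries. Its log2 change, given with its standard error here and throughout, was -0.51 ± 0.0774 in vehicle (adjusted p = 1.01e-06) and -0.70 ± 0.0812 with IFNγ (adjusted p = 1.91e-09). Atf6 (chromosome 1, 170704674 to 170867771) fell by less, with changes of -0.18 ± 0.0396 (adjusted p = 0.000387) and -0.20 ± 0.0391 (adjusted p = 4.18e-05). It had 103 and 106 CPM in the sgRNA1 vehicle libraries and 97.4 and 93.3 CPM in the sgRNA2 vehicle libraries, against 111 and 116 CPM in the Rosa26 vehicle libraries, and 104 and 112 CPM in the sgRNA1 IFNγ libraries and 107 and 113 CPM in the sgRNA2 IFNγ libraries, against 125 and 127 CPM in the Rosa26 IFNγ libraries, without overlap in either treatment. Ern1 (chromosome 11, 106394650 to 106487852), the gene of IRE1α, fell in vehicle (-0.15 ± 0.0506, adjusted p = 0.0175) and was not called with IFNγ (-0.12 ± 0.0506, adjusted p = 0.064). With sgRNA1 alone neither Atf6 (-0.11) nor Ern1 (-0.06) was called in vehicle. Xbp1 (chromosome 11, 5520659 to 5525893) rose with IFNγ (0.24 ± 0.0490, adjusted p = 8.61e-05) and was not called in vehicle (0.12 ± 0.0488, adjusted p = 0.0521, with 3.26e-05 to 1 over all alternatives).

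Xbp1 was higher in the sgRNA1 population than in the sgRNA2 population. It had 81.4 and 77.2 CPM in the sgRNA1 vehicle libraries and 59.2 and 64.9 CPM in the sgRNA2 vehicle libraries, against 67.4 and 61.8 CPM in the Rosa26 vehicle libraries. With IFNγ it had 82.8 and 83.4 CPM in the sgRNA1 IFNγ libraries and 70.5 and 67.0 CPM in the sgRNA2 IFNγ libraries, against 64.0 and 63.7 CPM in the Rosa26 IFNγ libraries. The sgRNA1 libraries were the highest in both treatments, and the sgRNA2 vehicle libraries overlapped those of Rosa26. Each guide alone against Rosa26 gave 0.30 ± 0.0550 for sgRNA1 (adjusted p = 3.26e-05) and -0.06 ± 0.0573 for sgRNA2 (adjusted p = 0.49) in vehicle, and 0.38 ± 0.0553 (adjusted p = 3.72e-07) and 0.11 ± 0.0572 (adjusted p = 0.152) with IFNγ. The guide comparisons share the Rosa26 libraries.

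**Figure D3:**
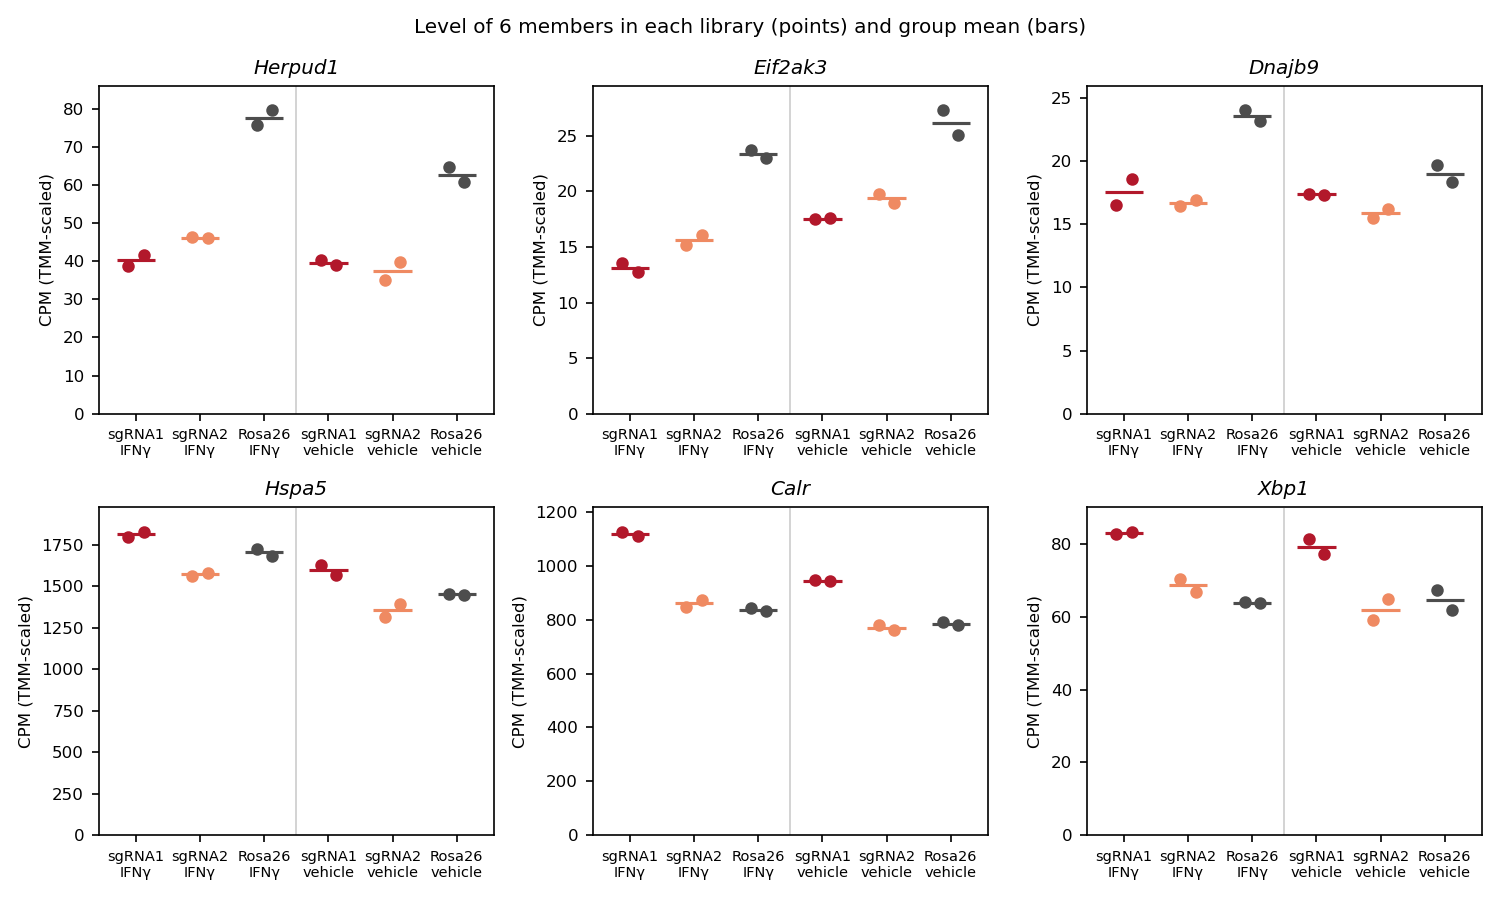
Each panel shows 1 gene, with CPM from 0 on the y axis, 1 point per library and a bar at the mean of the 2 libraries of a group. IFNγ groups are left of vehicle groups. Herpud1 and Eif2ak3 separate both Cop1 guides from Rosa26, while Hspa5, Calr and Xbp1 are highest with sgRNA1 and the sgRNA2 levels lie near or below those of Rosa26 except for Calr and Xbp1 with IFNγ, which lie slightly above.

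Herpud1 (chromosome 8, 94386438 to 94395377, plus strand), which encodes an ER membrane protein that helps assemble the ubiquitin ligase complex of ER-associated degradation, had the largest change of the 31 in both treatments. It had 40.3 and 39.1 CPM in the sgRNA1 vehicle libraries and 35.2 and 39.8 CPM in the sgRNA2 vehicle libraries, against 64.7 and 61.0 CPM in the Rosa26 vehicle libraries. With IFNγ it had 38.7 and 41.8 CPM in the sgRNA1 IFNγ libraries and 46.4 and 46.2 CPM in the sgRNA2 IFNγ libraries, against 75.9 and 79.8 CPM in the Rosa26 IFNγ libraries. All 8 Cop1-guide libraries lay below all 4 Rosa26 libraries. The log2 change was -0.70 ± 0.0545 in vehicle (adjusted p = 6.01e-14) and -0.85 ± 0.0529 with IFNγ (adjusted p = 4.39e-17), a decrease of 44.6% with IFNγ. The promoter is shown because Herpud1 carried both the largest decrease and matches to elements of more than one arm. The window runs from 250 bases before to 50 after the RefSeq start (GRCm38.p6, chr8:94386179-94386478, plus strand). Capitals mark a match to the CARE element (TGATG, 1 base, AA, here read on the other strand), which ATF4 and C/EBP proteins are known to bind, and a match to ERSE-II (ATTGG, 1 base, CCACG), an element bound by ATF6 and XBP1.
Herpud1: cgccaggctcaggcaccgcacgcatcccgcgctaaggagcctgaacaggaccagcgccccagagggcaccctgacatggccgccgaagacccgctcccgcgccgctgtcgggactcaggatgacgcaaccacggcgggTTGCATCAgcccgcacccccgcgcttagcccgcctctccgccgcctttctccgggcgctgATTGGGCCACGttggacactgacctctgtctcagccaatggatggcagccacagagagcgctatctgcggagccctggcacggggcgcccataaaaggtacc
Both motifs were searched on both strands. CARE was in 3.97% of 32851 RefSeq promoter windows of the same length. It was in 1 of the 26 listed genes with a window, Herpud1, which is near that share. ERSE-II was in 0.0365% of all windows and, besides that of Herpud1, in that of Dnajb11. A match is a description of the letters and not a bound site.

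Other factors of ER-associated degradation moved less and in both directions. Os9, a lectin that recognises trimmed glycans on misfolded proteins, rose in vehicle (0.22 ± 0.0505, adjusted p = 0.000481) and with IFNγ (0.32 ± 0.0517, adjusted p = 2.57e-06). It had 86.3 and 77.3 CPM in the sgRNA1 IFNγ libraries and 72.2 and 70.4 CPM in the sgRNA2 IFNγ libraries, against 59.5 and 63.1 CPM in the Rosa26 IFNγ libraries, with every Cop1-guide library above both Rosa26 libraries. Syvn1, the gene of the ubiquitin ligase HRD1, fell with IFNγ (-0.25 ± 0.0521, adjusted p = 0.000166). It had 49.7 and 50.4 CPM in the sgRNA1 IFNγ libraries and 49.5 and 47.1 CPM in the sgRNA2 IFNγ libraries, against 58.7 and 57.8 CPM in the Rosa26 IFNγ libraries, without overlap, and its vehicle change of -0.13 ± 0.0540 was not called (adjusted p = 0.0537). Derl2, a channel protein of the retrotranslocon, fell with IFNγ by 0.24 on the log2 scale, while Edem1, which extracts mannose-trimmed glycoproteins from folding, rose by 0.17. Neither was called in vehicle, where they were at -0.04 and 0.05. Sel1l, the partner of HRD1, and Derl1 were not called in either treatment, with changes from -0.08 to 0.00. Of the 7 tested genes of this subgroup, 1 rose and 1 fell in vehicle and 2 rose and 3 fell with IFNγ. In vehicle that is 14.3% and 14.3%, below the 16.6% and 19.2% of all genes tested. With IFNγ it is 28.6% and 42.9%, against 19.8% and 20.7%.

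Of the 9 chaperones and cochaperones of the BiP and GRP94 systems, 5 rose and none fell in vehicle, and 5 rose and 2 fell with IFNγ, on the mean of the guides. In vehicle that is 55.6% and 0%, against 16.6% and 19.2% of all genes tested. With IFNγ it is 55.6% and 22.2%, against 19.8% and 20.7%. With sgRNA2 alone against Rosa26, 3 were higher and 3 lower in vehicle and 3 higher and 3 lower with IFNγ, and with sgRNA1 alone 6 higher and 0 lower, and 7 higher and 1 lower. Of all genes tested, sgRNA2 alone gave 13.5% higher and 15.7% lower in vehicle, and 16.6% and 16.2% with IFNγ. For sgRNA1 alone the shares were 15.8% and 17.5% in vehicle, and 18.9% and 19.3% with IFNγ. Creld2, an ER stress-inducible protein with EGF-like repeats, had 45.8 and 43.0 CPM in the sgRNA1 vehicle libraries and 43.5 and 42.8 CPM in the sgRNA2 vehicle libraries, against 35.7 and 35.2 CPM in the Rosa26 vehicle libraries. All Cop1-guide libraries were above both Rosa26 libraries, with a change of 0.31 ± 0.0576 (adjusted p = 3.6e-05), and 0.29 ± 0.0563 with IFNγ (adjusted p = 4.6e-05). Manf, an ER-resident factor that binds BiP and can be secreted, had 124 and 126 CPM in the sgRNA1 vehicle libraries and 117 and 116 CPM in the sgRNA2 vehicle libraries, against 104 and 102 CPM in the Rosa26 vehicle libraries. It rose in vehicle (0.23 ± 0.0364, adjusted p = 2.41e-06) without overlap and was not called with IFNγ (0.08 ± 0.0356, adjusted p = 0.0804), where it had 147 and 143 CPM in the sgRNA1 IFNγ libraries and 122 and 118 CPM in the sgRNA2 IFNγ libraries, against 125 and 125 CPM in the Rosa26 IFNγ libraries, with sgRNA1 above and sgRNA2 below Rosa26. Hyou1, a nucleotide exchange factor for BiP, rose by 0.15 ± 0.0308 (adjusted p = 0.000176) in vehicle and 0.17 ± 0.0306 (adjusted p = 2.21e-05) with IFNγ. Dnajc3, a J-domain cochaperone of BiP, rose by 0.19 ± 0.0424 (adjusted p = 0.000482) and 0.24 ± 0.0429 (adjusted p = 1.43e-05), and Dnajb11, another one, by 0.19 and 0.20. With sgRNA2 alone, Hyou1 was not called in vehicle (0.03, adjusted p = 0.547), and Dnajb11 was called in neither treatment (0.11, adjusted p = 0.0926 in vehicle and 0.05, adjusted p = 0.461 with IFNγ).

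Dnajb9, a J-domain cochaperone through which BiP is known to restrain IRE1α, went the other way. It had 16.6 and 18.6 CPM in the sgRNA1 IFNγ libraries and 16.5 and 16.9 CPM in the sgRNA2 IFNγ libraries, against 24.1 and 23.2 CPM in the Rosa26 IFNγ libraries. The Cop1-guide libraries lay below both Rosa26 libraries, with a change of -0.47 ± 0.0813 (adjusted p = 8.95e-06). In vehicle it had 17.4 and 17.3 CPM in the sgRNA1 vehicle libraries and 15.5 and 16.2 CPM in the sgRNA2 vehicle libraries, against 19.7 and 18.3 CPM in the Rosa26 vehicle libraries, again without overlap, and the change of -0.20 ± 0.0836 was not called (adjusted p = 0.0636). Sdf2l1, which acts with Dnajb11, had 18.4 and 18.1 CPM in the sgRNA1 IFNγ libraries and 14.9 and 12.7 CPM in the sgRNA2 IFNγ libraries, against 21.2 and 16.5 CPM in the Rosa26 IFNγ libraries. The libraries overlapped, and its change of -0.25 ± 0.0964 passed the test (adjusted p = 0.0386), but without Rosa26 IFNγ replicate 1 it was at -0.05 and without Rosa26 IFNγ replicate 2 at -0.41. Hsp90b1, the gene of the ER Hsp90 GRP94, rose with IFNγ (0.14 ± 0.0250, adjusted p = 1.77e-05) and not in vehicle (-0.01 ± 0.0248, adjusted p = 0.787). With sgRNA2 alone its change with IFNγ was 0.03 ± 0.0289 (adjusted p = 0.531).

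Hspa5 moved in opposite directions in the guides. It had 1628 and 1568 CPM in the sgRNA1 vehicle libraries and 1315 and 1395 CPM in the sgRNA2 vehicle libraries, against 1456 and 1449.9 CPM in the Rosa26 vehicle libraries. With IFNγ it had 1801 and 1830.0 CPM in the sgRNA1 IFNγ libraries and 1562 and 1583 CPM in the sgRNA2 IFNγ libraries, against 1725 and 1686 CPM in the Rosa26 IFNγ libraries. In both treatments the sgRNA1 libraries were above, and the sgRNA2 libraries below, both Rosa26 libraries. The mean over the guides was at 0.02 ± 0.0222 in vehicle (adjusted p = 0.551) and -0.01 ± 0.0221 with IFNγ (adjusted p = 0.666). Against Rosa26 alone, sgRNA1 was at 0.14 ± 0.0255 (adjusted p = 3.21e-05) and 0.09 ± 0.0255 (adjusted p = 0.0041), and sgRNA2 at -0.10 ± 0.0256 (adjusted p = 0.00235) and -0.12 ± 0.0255 (adjusted p = 0.00033), in vehicle and with IFNγ in each case.

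Calreticulin and calnexin hold glycoproteins in the folding cycle and differed from each other. Calr (chromosome 8, 84841850 to 84846934) rose in vehicle (0.12 ± 0.0224, adjusted p = 3.83e-05) and with IFNγ (0.23 ± 0.0224, adjusted p = 2.88e-11). It had 949 and 944 CPM in the sgRNA1 vehicle libraries and 780.0 and 761 CPM in the sgRNA2 vehicle libraries, against 791 and 782 CPM in the Rosa26 vehicle libraries. With IFNγ it had 1128 and 1114 CPM in the sgRNA1 IFNγ libraries and 847 and 876 CPM in the sgRNA2 IFNγ libraries, against 844 and 833 CPM in the Rosa26 IFNγ libraries. Against Rosa26, sgRNA1 alone was at 0.27 ± 0.0256 and 0.42 ± 0.0256, while sgRNA2 alone was at -0.03 ± 0.0258 (adjusted p = 0.43) in vehicle and 0.04 ± 0.0258 (adjusted p = 0.262) with IFNγ. Canx had 721 and 726 CPM in the sgRNA1 vehicle libraries and 718 and 704 CPM in the sgRNA2 vehicle libraries, against 748 and 753 CPM in the Rosa26 vehicle libraries. It fell in vehicle by 0.07 on the log2 scale (adjusted p = 0.0212), without overlap, and was at 0.00 ± 0.0228 with IFNγ (adjusted p = 0.943). With sgRNA1 alone Canx was at -0.05 in vehicle and not called.

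In the disulfide isomerase family, 4 of 5 rose in each treatment and none fell, on the mean of the guides. That is 80% higher in each treatment, against 16.6% of all genes tested in vehicle and 19.8% with IFNγ. With sgRNA2 alone 2 were higher and 1 lower in vehicle, and 1 higher and 1 lower with IFNγ. With sgRNA1 alone 5 and 4 were higher and 0 lower. Of all genes tested, sgRNA2 alone gave 13.5% higher and 15.7% lower in vehicle, and 16.6% and 16.2% with IFNγ. The sgRNA2 counts of 1 in 5 with IFNγ are near those shares. For sgRNA1 alone the shares were 15.8% and 17.5% in vehicle, and 18.9% and 19.3% with IFNγ. Pdia3, the gene of ERp57 that works with the lectin chaperones, had 669 and 645 CPM in the sgRNA1 vehicle libraries and 575 and 593 CPM in the sgRNA2 vehicle libraries, against 554 and 552 CPM in the Rosa26 vehicle libraries, without overlap. Its change was 0.16 ± 0.0245 (adjusted p = 7.37e-07) and, with IFNγ, 0.18 ± 0.0245 (adjusted p = 1.04e-07). The isomerase genes Pdia6 and Pdia4 rose by 0.13 ± 0.0273 (adjusted p = 0.00014) and 0.16 ± 0.0358 (adjusted p = 0.000536) in vehicle. With IFNγ both rose, by 0.17 ± 0.0275 (adjusted p = 3.15e-06) and 0.18 ± 0.0359 (adjusted p = 8.42e-05). With sgRNA2 alone neither was called, at 0.03 and 0.10 in vehicle and 0.01 and 0.09 with IFNγ (adjusted p from 0.0688 to 0.872). Erp29, a family member known to lack the isomerase active site, rose by 0.15 and 0.14, the second not with sgRNA2 alone (0.10 ± 0.0497, adjusted p = 0.126). P4hb was not called on the mean of the guides (-0.04 ± 0.0235, adjusted p = 0.189 in vehicle). In vehicle the guides parted, with sgRNA1 at 0.08 ± 0.0271 (adjusted p = 0.0167) and sgRNA2 at -0.16 ± 0.0273 (adjusted p = 9.57e-06) against Rosa26.

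Of 4 translocon genes, Sec61b, a small subunit of the Sec61 channel, and Ssr1, a subunit of the TRAP complex beside it, rose in both treatments. That is 50% in each treatment, against 16.6% of all genes tested in vehicle and 19.8% with IFNγ. Sec61b rose by 0.19 ± 0.0463 (adjusted p = 0.000908) in vehicle and 0.28 ± 0.0476 (adjusted p = 7.52e-06) with IFNγ, and Ssr1 by 0.13 ± 0.0272 (adjusted p = 0.000175) and 0.14 ± 0.0276 (adjusted p = 4.89e-05). Ssr1 had 307 and 305 CPM in the sgRNA1 vehicle libraries and 296 and 291 CPM in the sgRNA2 vehicle libraries, against 273 and 274 CPM in the Rosa26 vehicle libraries, without overlap. The pore subunit gene Sec61a1 and the J-domain gene Sec63, which recruits BiP to the channel, were not called in either treatment on the mean of the guides, with changes from -0.07 to 0.05. In vehicle the guides parted for Sec61a1. With sgRNA1 alone it was at 0.07 and not called, and with sgRNA2 alone it was lower, at -0.14 (edgeR's adjusted p = 0.00292).

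Most of these changes were small beside what a stricter test asks for. Against a minimum change of 1.2-fold, edgeR's glmTreat called only Herpud1 and Eif2ak3 in vehicle and only Herpud1, Eif2ak3 and Dnajb9 with IFNγ among the 31, and the same genes were the only ones called when the 2 libraries of each population were summed. Leaving out 1 library ended 4 named calls, given here with edgeR's adjusted p in brackets. Ern1 lost its call without sgRNA1 vehicle replicate 2 (0.0575), Rosa26 vehicle replicate 1 (0.126) or Rosa26 vehicle replicate 2 (0.0686), with 0.0021 to 1 over all its alternatives. Canx lost its call without sgRNA1 vehicle replicate 1 (0.0598), sgRNA2 IFNγ replicate 2 (0.0524), Rosa26 vehicle replicate 1 (0.084) or Rosa26 vehicle replicate 2 (0.147), with 0.0119 to 1 over all its alternatives. Those 2 were in vehicle, and the next were with IFNγ. Sdf2l1 lost its call without sgRNA1 IFNγ replicate 1 (0.0602), sgRNA1 IFNγ replicate 2 (0.0675), sgRNA2 IFNγ replicate 2 (0.146) or Rosa26 IFNγ replicate 1 (0.794, at a log2 change of -0.05), with 0.00236 to 1 over all its alternatives. Erp29 lost its call without sgRNA2 IFNγ replicate 2 (0.0999, at a log2 change of 0.09) or Rosa26 IFNγ replicate 1 (0.0596), with 0.000164 to 1 over all its alternatives.

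Promoters of the chaperone genes are shown for the element that ATF6 is known to bind with NF-Y, the ER stress response element (ERSE: CCAAT, 9 bases, CCACG). It was in the windows of 9 of the 26 listed genes with a RefSeq window, against 0.119% of 32851 windows, searched on both strands. The 32851 windows include those of the listed genes. ER chaperones are known targets of this response, so frequent matches among them describe the letters and are no result of these data. Its part CCACG, which lies within each ERSE and ERSE-II by construction, was in 22 of 26, against 32.8% of all windows. The sites follow, 5′ to 3′ on the strand that reads CCAAT or ATTGG first, with the outer parts in capitals and coordinates of GRCm38.p6.
Hspa5, chr2:34772025-34772043 (plus strand, ERSE): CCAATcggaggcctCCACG
Calr, chr8:84847075-84847093 (plus strand, ERSE): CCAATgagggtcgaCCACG
Herpud1, chr8:94386377-94386387 (plus strand, ERSE-II): ATTGGgCCACG
Derl3, chr10:75893242-75893260 (minus strand, ERSE): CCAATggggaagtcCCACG
Hsp90b1, chr10:86705638-86705656 (minus strand, ERSE): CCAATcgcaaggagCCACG
Hsp90b1, chr10:86705533-86705551 (plus strand, ERSE): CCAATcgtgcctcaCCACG
Canx, chr11:50325800-50325818 (minus strand, ERSE): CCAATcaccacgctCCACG
Pdia6, chr12:17266491-17266509 (plus strand, ERSE): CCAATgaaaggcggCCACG
Dnajc3, chr14:118937827-118937845 (plus strand, ERSE): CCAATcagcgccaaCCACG
Creld2, chr15:88819520-88819538 (minus strand, ERSE): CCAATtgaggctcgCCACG
Dnajb11, chr16:22857852-22857862 (plus strand, ERSE-II): ATTGGcCCACG
Syvn1, chr19:6046532-6046550 (plus strand, ERSE): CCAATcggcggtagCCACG
Hsp90b1 held a pair of sites, and the spacer letters differed between all sites. The site of Hspa5 began 65 bases before the start, and its whole window (chr2:34771840-34772139, plus strand) is shown with the ERSE in capitals.
Hspa5: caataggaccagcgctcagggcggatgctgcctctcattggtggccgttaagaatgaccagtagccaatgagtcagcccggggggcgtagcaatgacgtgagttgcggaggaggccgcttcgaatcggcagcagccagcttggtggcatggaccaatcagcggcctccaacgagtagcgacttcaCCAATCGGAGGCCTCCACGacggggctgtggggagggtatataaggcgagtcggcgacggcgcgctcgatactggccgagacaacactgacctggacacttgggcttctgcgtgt
The UPRE (TGACGTGG), which XBP1 is known to bind, was in none of the 26 windows and in 0.676% of all windows. Of the 10 tested genes with an ERSE or ERSE-II, 5 rose and 2 fell with Cop1 loss in vehicle, and of the 15 tested genes with a window and neither element, 5 rose and 2 fell. These counts are on the mean of the guides. With sgRNA1 alone 6 rose and 1 fell of the 10, and 7 rose and 1 fell of the 15. With sgRNA2 alone 2 rose and 4 fell of the 10, and 4 rose and 4 fell of the 15. With IFNγ the counts on the mean of the guides were 6 higher and 2 lower of 10, and 7 higher and 4 lower of 15. There sgRNA1 alone gave 7 higher and 2 lower of 10, and 7 and 3 of 15. For sgRNA2 alone they were 2 and 3 of 10, and 5 and 6 of 15. Of all genes tested, 16.6% rose and 19.2% fell in vehicle, and 19.8% and 20.7% with IFNγ, on the mean of the guides. For sgRNA1 alone these shares were 15.8% and 17.5% in vehicle, and 18.9% and 19.3% with IFNγ. For sgRNA2 alone they were 13.5% and 15.7% in vehicle, and 16.6% and 16.2% with IFNγ. The part of the elements in these changes was not tested. Atf6, Hyou1, Manf, Derl1, Erp29 and Sec61a1 had no entry.

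The guides differed from each other across the chaperones. In vehicle, sgRNA2 was below sgRNA1 for 10 of the 31 genes (32.3%, against 3.41% of all genes tested) and above it for 0 (0%, against 2.58%), with 0 by DESeq2 and 0 at an unadjusted p under 0.05. With IFNγ it was below sgRNA1 for 17 (54.8%, against 4.33%) and above it for 1, Herpud1 (3.23%, against 5.07%). The median log2 difference was -0.11 in vehicle and -0.15 with IFNγ, against 0.00 and 0.00 over all genes tested. The sign was negative for 30 of 31 genes in vehicle and 26 of 31 with IFNγ.

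**Figure D4:**
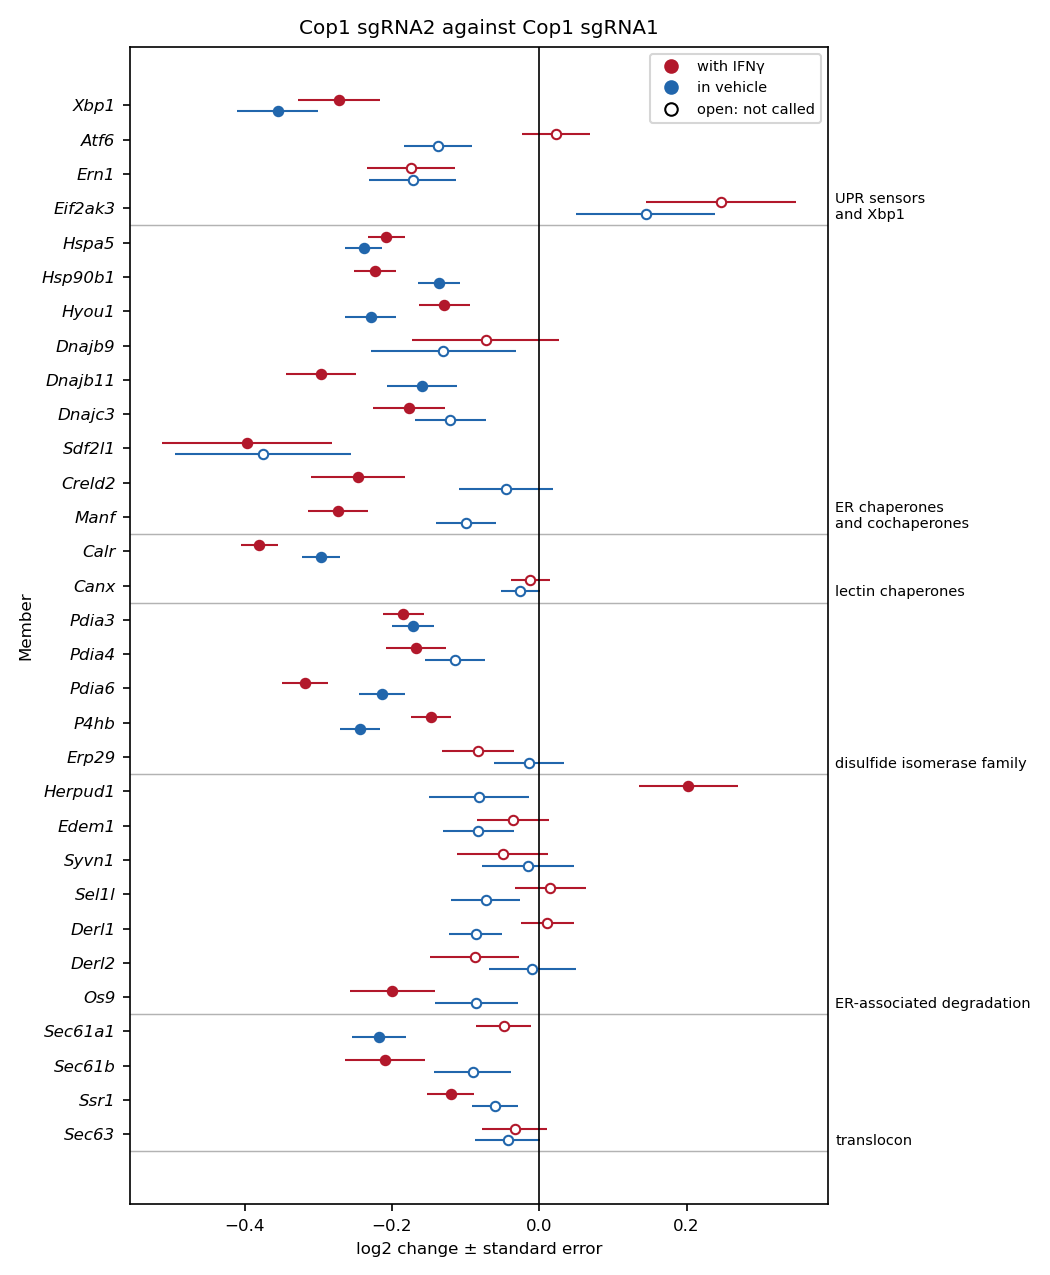
Each row is a tested gene, and the x axis is the log2 difference of sgRNA2 against sgRNA1 cells with its standard error. Red points are with IFNγ and blue points in vehicle, filled where called. Nearly all points lie left of 0, with Calr, Hspa5 and Pdia6 called in both treatments and Herpud1 called to the right with IFNγ.

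Calr had 847 and 876 CPM with sgRNA2 and 1128 and 1114 CPM with sgRNA1 under IFNγ, and a difference of -0.38 ± 0.0256 (adjusted p = 1.89e-14). In vehicle the difference was -0.30 ± 0.0257 (adjusted p = 3.19e-11). Pdia6 was at -0.21 ± 0.0312 (adjusted p = 6.3e-06) and -0.32 ± 0.0315 (adjusted p = 1.01e-09), and Pdia3 at -0.17 ± 0.0280 (adjusted p = 4.13e-05) and -0.18 ± 0.0280 (adjusted p = 1.08e-05), in vehicle and with IFNγ. P4hb had 647 and 679 CPM with sgRNA2 and 785 and 785 CPM with sgRNA1 in vehicle, without overlap, and was at -0.24 ± 0.0272 (adjusted p = 2.11e-08), and with IFNγ at -0.15 ± 0.0273 (adjusted p = 0.000232). Hspa5 was at -0.24 ± 0.0256 (adjusted p = 9.45e-09) and -0.21 ± 0.0255 (adjusted p = 1.57e-07), and Hsp90b1 at -0.14 ± 0.0287 (adjusted p = 0.00148) and -0.22 ± 0.0287 (adjusted p = 3.89e-07).

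Xbp1 was lower with sgRNA2 as well, at -0.36 ± 0.0556 (adjusted p = 1.88e-05) in vehicle and -0.27 ± 0.0556 (adjusted p = 0.000776) with IFNγ. The sensors were not called, with Atf6 at -0.14 ± 0.0463 (adjusted p = 0.0737) and 0.02 ± 0.0462 (adjusted p = 0.838), Ern1 at -0.17 ± 0.0592 (adjusted p = 0.0819) and -0.17 ± 0.0594 (adjusted p = 0.0559), and Eif2ak3 at 0.14 ± 0.0940 (adjusted p = 0.441) and 0.25 ± 0.102 (adjusted p = 0.131). Of the 9 chaperones and cochaperones, 4 were lower in vehicle (44.4%, against 3.41% of all genes tested). With IFNγ 8 were lower, all but Dnajb9 (88.9%, against 4.33%). The lower ones included Hyou1 in vehicle (-0.23 ± 0.0351, adjusted p = 1.42e-05), and Manf (-0.27 ± 0.0410, adjusted p = 8.56e-06) and Dnajb11 (-0.30 ± 0.0479, adjusted p = 3.12e-05) with IFNγ. The translocon gene Sec61a1 was lower in vehicle (-0.22 ± 0.0370, adjusted p = 7.94e-05), and Sec61b (-0.21 ± 0.0539, adjusted p = 0.0086) and Ssr1 (-0.12 ± 0.0316, adjusted p = 0.0104) with IFNγ. In ER-associated degradation 0 of 7 were called in vehicle (0 higher and 1 lower at an unadjusted p under 0.05), while with IFNγ Os9 was lower (-0.20 ± 0.0582, adjusted p = 0.0224) and Herpud1 higher (0.20 ± 0.0668, adjusted p = 0.0465). Cop1 mRNA was also lower with sgRNA2 than with sgRNA1, as given above, and its part in the differences was not tested.

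With a minimum change of 1.2-fold, Calr with IFNγ was the only one of these differences called. Leaving out 1 library ended further calls, given here with edgeR's adjusted p in brackets. In vehicle, Dnajb11 lost its call without sgRNA1 vehicle replicate 1 (0.124), sgRNA1 vehicle replicate 2 (0.177), sgRNA2 vehicle replicate 1 (0.099) or sgRNA2 vehicle replicate 2 (0.152), with 0.0281 to 1 over all its alternatives. The rest were with IFNγ. Herpud1 lost its call without sgRNA1 IFNγ replicate 1 (0.388), sgRNA2 IFNγ replicate 1 (0.204), sgRNA2 IFNγ replicate 2 (0.137), Rosa26 IFNγ replicate 1 (0.0512), Rosa26 IFNγ replicate 2 (0.0509), Rosa26 vehicle replicate 1 (0.0509) or Rosa26 vehicle replicate 2 (0.0503), with 0.0319 to 1 over all its alternatives. Os9 lost its call without sgRNA1 IFNγ replicate 1 (0.431, at a log2 change of -0.12), sgRNA2 IFNγ replicate 1 (0.0916) or sgRNA2 IFNγ replicate 2 (0.141), with 0.0061 to 1 over all its alternatives. Sec61b lost its call without sgRNA1 IFNγ replicate 1 (0.217) or sgRNA2 IFNγ replicate 1 (0.404, at a log2 change of -0.11), with 0.00075 to 1 over all its alternatives. Ssr1 lost its call without sgRNA1 IFNγ replicate 2 (0.14) or sgRNA2 IFNγ replicate 1 (0.155), with 0.00615 to 1 over all its alternatives. Hyou1 lost its call without sgRNA1 IFNγ replicate 1 (0.217) or sgRNA2 IFNγ replicate 1 (0.253), with 0.00549 to 1 over all its alternatives. Dnajc3 lost its call without sgRNA1 IFNγ replicate 1 (0.27) or sgRNA2 IFNγ replicate 1 (0.186), with 0.00978 to 1 over all its alternatives. Sdf2l1 lost its call without sgRNA1 IFNγ replicate 1 (0.128), sgRNA1 IFNγ replicate 2 (0.0723) or sgRNA2 IFNγ replicate 2 (0.239), with 0.00984 to 1 over all its alternatives. Creld2 lost its call without sgRNA1 IFNγ replicate 2 (0.0986) or sgRNA2 IFNγ replicate 1 (0.181), with 0.00584 to 1 over all its alternatives. Pdia4 lost its call without sgRNA1 IFNγ replicate 1 (0.177) or sgRNA2 IFNγ replicate 2 (0.0617), with 0.00212 to 1 over all its alternatives.

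IFNγ raised BiP and several of its cofactors in both Cop1-loss and Rosa26 populations. Hspa5 rose by 14.8% in Cop1-loss cells and 17.4% in Rosa26 cells. Sdf2l1, Syvn1, Herpud1, Manf, Creld2, Hyou1, Atf6, Calr and Pdia3 rose in both. Sec61b, Ssr1 and Erp29 fell in both. For Cop1-loss cells these are means of the guides. With sgRNA1 alone Herpud1 (0.02 ± 0.0661, adjusted p = 0.898) and Atf6 (0.05 ± 0.0454, adjusted p = 0.528) were not called higher, and with sgRNA2 alone Sdf2l1 (0.30 ± 0.124, adjusted p = 0.0747), Creld2 (0.09 ± 0.0656, adjusted p = 0.38) and Manf (0.04 ± 0.0420, adjusted p = 0.51) were not. Of the decreases, Sec61b (-0.06 ± 0.0519, adjusted p = 0.492) and Erp29 (-0.11 ± 0.0474, adjusted p = 0.0876) were not called with sgRNA1 alone. In Cop1-loss cells 13 of the 31 genes were higher (41.9%, against 18.1% of all genes tested) and 5 lower (16.1%, against 16.1%). In Rosa26 cells 12 were higher (38.7%, against 16.6%) and 4 lower (12.9%, against 16.2%). In Cop1-loss cells sgRNA1 alone gave 10 higher (32.3%, against 12.5% of all genes tested) and 3 lower (9.68%, against 9.98%), and sgRNA2 alone gave 9 higher (29.0%, against 14.2% of all genes tested) and 4 lower (12.9%, against 11%). The median log2 change was 0.06 in Cop1-loss and 0.01 in Rosa26 cells, against -0.01 and -0.01 over all genes tested. The 10 genes called higher in both populations were 76.9% of those in Cop1-loss and 83.3% of those in Rosa26 cells, beside 63.8% and 69.6% over all genes tested. The responses of the populations share no library.

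**Figure D5:**
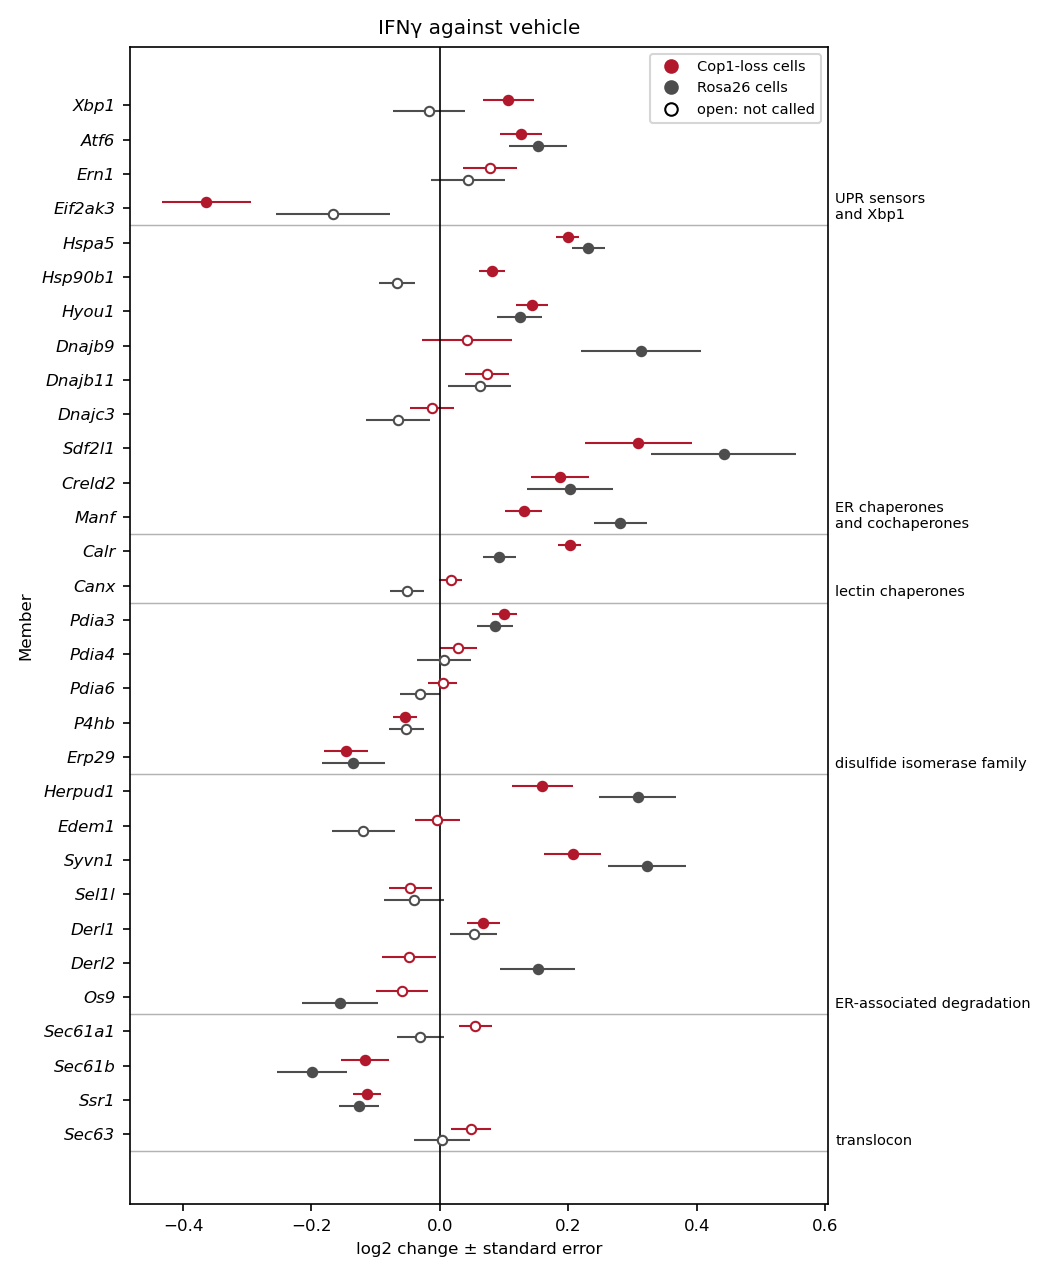
Each row is a tested gene, and the x axis is the log2 change of IFNγ against vehicle with its standard error. Red points are Cop1-loss cells (mean of the 2 guides) and grey points Rosa26 cells, filled where called. Hspa5, Sdf2l1, Syvn1, Manf and Herpud1 lie to the right in both, and Eif2ak3 lies farthest to the left in Cop1-loss cells.

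Hspa5, with the library values given above, had every IFNγ library above the vehicle libraries of its own population. Its change was 0.20 ± 0.0181 in Cop1-loss cells (adjusted p = 2.19e-12) and 0.23 ± 0.0255 in Rosa26 cells (adjusted p = 6.22e-10). Manf had 125 and 125 CPM in Rosa26 IFNγ libraries against 104 and 102 CPM in Rosa26 vehicle libraries. Its change was 0.13 ± 0.0290 in Cop1-loss (adjusted p = 0.000359) and 0.28 ± 0.0417 in Rosa26 cells (adjusted p = 5.55e-07). Sdf2l1 had 18.4 and 18.1 CPM in sgRNA1 IFNγ and 14.9 and 12.7 CPM in sgRNA2 IFNγ libraries, against 15.1 and 14.1 CPM in sgRNA1 vehicle and 10.8 and 11.7 CPM in sgRNA2 vehicle libraries. In Rosa26 cells it had 21.2 and 16.5 CPM with IFNγ against 14.0 and 13.8 CPM in vehicle, and the IFNγ libraries lay apart from each other. Its change was 0.31 ± 0.0831 (adjusted p = 0.00291) in Cop1-loss and 0.44 ± 0.113 (adjusted p = 0.002) in Rosa26 cells, and 0.25 in Rosa26 cells without IFNγ replicate 1. Creld2 rose by 0.19 in Cop1-loss and 0.20 in Rosa26 cells, and Hyou1 by 0.14 and 0.12. Dnajb9 was not called in Cop1-loss cells (0.04 ± 0.0700, adjusted p = 0.694) and rose in Rosa26 cells (0.31 ± 0.0935, adjusted p = 0.00787).

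Among the sensors, Eif2ak3 fell in Cop1-loss cells (-0.36 ± 0.0693, adjusted p = 4.02e-05), with 13.5 and 12.7 CPM in sgRNA1 IFNγ and 15.2 and 16.1 CPM in sgRNA2 IFNγ libraries against 17.5 and 17.6 CPM in sgRNA1 vehicle and 19.8 and 19.0 CPM in sgRNA2 vehicle libraries. All IFNγ libraries lay below all vehicle libraries of these cells. In Rosa26 cells it was at -0.17 ± 0.0886 (adjusted p = 0.151), and the difference between the responses was not called (-0.20 ± 0.113, adjusted p = 0.368). Atf6 rose by 0.13 ± 0.0327 (adjusted p = 0.00202) in Cop1-loss and 0.15 ± 0.0452 (adjusted p = 0.00735) in Rosa26 cells. Xbp1 rose in Cop1-loss cells (0.11 ± 0.0393, adjusted p = 0.0313) and was at -0.02 ± 0.0568 (adjusted p = 0.855) in Rosa26 cells. In Cop1-loss cells Xbp1 was not called with either guide alone or by DESeq2. Ern1 was called in neither, at 0.08 ± 0.0419 (adjusted p = 0.154) in Cop1-loss and 0.04 ± 0.0581 (adjusted p = 0.611) in Rosa26 cells.

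In ER-associated degradation, Syvn1 had 49.7 and 50.4 CPM in sgRNA1 IFNγ and 49.5 and 47.1 CPM in sgRNA2 IFNγ libraries, against 44.4 and 40.9 CPM in sgRNA1 vehicle and 42.3 and 42.4 CPM in sgRNA2 vehicle libraries. In Rosa26 cells it had 58.7 and 57.8 CPM with IFNγ against 46.9 and 46.4 CPM in vehicle. It rose by 0.21 ± 0.0442 (adjusted p = 0.000206) in Cop1-loss and 0.32 ± 0.0607 (adjusted p = 4.01e-05) in Rosa26 cells. Herpud1 was at 0.16 ± 0.0475 (adjusted p = 0.00721) on the mean of the Cop1 guides, with 0.02 in sgRNA1 and 0.30 ± 0.0681 (adjusted p = 0.000654) in sgRNA2 cells, and rose by 0.31 ± 0.0601 (adjusted p = 6.68e-05) in Rosa26 cells. Its IFNγ libraries of Cop1-loss cells stayed below every Rosa26 vehicle library. Derl1 rose in Cop1-loss cells (0.07 ± 0.0257, adjusted p = 0.0384) and Derl2 in Rosa26 cells (0.15 ± 0.0584, adjusted p = 0.0408), while Os9 fell in Rosa26 cells by 0.16 on the log2 scale. DESeq2 called none of these changes of Derl1, Derl2 and Os9, and Derl1 was not called with sgRNA1 alone. Of the lectin chaperones, Calr rose by 0.20 ± 0.0181 (adjusted p = 1.53e-12) in Cop1-loss and 0.09 ± 0.0257 (adjusted p = 0.00435) in Rosa26 cells, and Canx was called in neither.

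Of the disulfide isomerase family 1 of 5 rose in each population, and of the translocon genes 0 of 4, by edgeR. The first is 20%, near the 18.1% of all genes tested in Cop1-loss and 16.6% in Rosa26 cells. Pdia3 rose by 0.10 ± 0.0198 (adjusted p = 6.64e-05) in Cop1-loss and 0.09 ± 0.0282 (adjusted p = 0.0154) in Rosa26 cells. Erp29 fell in both, at -0.15 ± 0.0341 (adjusted p = 0.000617) in Cop1-loss (-0.09 without sgRNA2 IFNγ replicate 1) and -0.13 ± 0.0490 (adjusted p = 0.0305) in Rosa26 cells, and P4hb fell in Cop1-loss cells (-0.05 ± 0.0193, adjusted p = 0.0243). P4hb was not called with sgRNA2 alone, and DESeq2 did not call Erp29 in Rosa26 cells. Pdia4 and Pdia6 were called in neither. Sec61b was lower with IFNγ, at -0.12 ± 0.0376 (adjusted p = 0.0131) in Cop1-loss and -0.20 ± 0.0546 (adjusted p = 0.0037) in Rosa26 cells, and so was Ssr1, at -0.11 ± 0.0222 (adjusted p = 5.7e-05) and -0.13 ± 0.0316 (adjusted p = 0.0016). At an unadjusted p under 0.05 the translocon genes higher with IFNγ numbered 1 in Cop1-loss and 0 in Rosa26 cells.

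Against a minimum change of 1.2-fold, none of the IFNγ changes of the 31 genes was called in either population by edgeR's glmTreat, against 18 called without a minimum in Cop1-loss and 16 in Rosa26 cells. Leaving out 1 library ended calls in both, given here with edgeR's adjusted p in brackets. In Cop1-loss cells, Herpud1 lost its call without sgRNA1 IFNγ replicate 2 (0.0549) or sgRNA2 vehicle replicate 1 (0.0742), with 0.000654 to 1 over all its alternatives. Xbp1 lost its call without sgRNA1 IFNγ replicate 1 (0.0577), sgRNA1 IFNγ replicate 2 (0.0739), sgRNA1 vehicle replicate 2 (0.116), sgRNA2 IFNγ replicate 1 (0.146) or sgRNA2 vehicle replicate 1 (0.185), with 0.00893 to 1 over all its alternatives. P4hb lost its call without sgRNA1 IFNγ replicate 1 (0.13), sgRNA1 vehicle replicate 1 (0.0659), sgRNA1 vehicle replicate 2 (0.0597), sgRNA2 IFNγ replicate 1 (0.111) or sgRNA2 vehicle replicate 2 (0.158), with 0.00316 to 1 over all its alternatives. Derl1 lost its call without sgRNA1 IFNγ replicate 1 (0.0519), sgRNA1 IFNγ replicate 2 (0.117), sgRNA1 vehicle replicate 1 (0.115), sgRNA1 vehicle replicate 2 (0.0518), sgRNA2 IFNγ replicate 1 (0.276, at a log2 change of 0.04) or sgRNA2 vehicle replicate 1 (0.247, at a log2 change of 0.04), with 0.0047 to 1 over all its alternatives. Sec61b lost its call without sgRNA1 IFNγ replicate 2 (0.101), sgRNA1 vehicle replicate 1 (0.0675), sgRNA2 IFNγ replicate 1 (0.219, at a log2 change of -0.07) or sgRNA2 vehicle replicate 1 (0.0788), with 0.000807 to 1 over all its alternatives. The next were in Rosa26 cells. Atf6 lost its call without Rosa26 vehicle replicate 1 (0.114), with 0.003 to 1 over all its alternatives. Hyou1 lost its call without Rosa26 IFNγ replicate 2 (0.142), with 0.00193 to 1 over all its alternatives. Dnajb9 lost its call without Rosa26 IFNγ replicate 1 (0.0666) or Rosa26 vehicle replicate 2 (0.0912), with 0.00579 to 0.649 over all its alternatives. Sdf2l1 lost its call without Rosa26 IFNγ replicate 1 (0.184, at a log2 change of 0.25), with 0.000234 to 0.184 over all its alternatives. Creld2 lost its call without Rosa26 IFNγ replicate 2 (0.0847), Rosa26 vehicle replicate 1 (0.0565) or Rosa26 vehicle replicate 2 (0.0848), with 0.0132 to 1 over all its alternatives. Calr lost its call without Rosa26 IFNγ replicate 1 (0.0534) or Rosa26 vehicle replicate 2 (0.0531), with 0.00205 to 1 over all its alternatives. Pdia3 lost its call without Rosa26 IFNγ replicate 1 (0.247, at a log2 change of 0.06), Rosa26 vehicle replicate 1 (0.0685) or Rosa26 vehicle replicate 2 (0.0804), with 0.0055 to 1 over all its alternatives. Erp29 lost its call without Rosa26 IFNγ replicate 1 (0.116), Rosa26 IFNγ replicate 2 (0.119), Rosa26 vehicle replicate 1 (0.117) or Rosa26 vehicle replicate 2 (0.0993), with 0.014 to 1 over all its alternatives. Derl2 lost its call without Rosa26 IFNγ replicate 1 (0.35, at a log2 change of 0.10), Rosa26 vehicle replicate 1 (0.0991) or Rosa26 vehicle replicate 2 (0.16), with 0.022 to 1 over all its alternatives. Os9 lost its call without sgRNA2 IFNγ replicate 2 (0.0556), Rosa26 IFNγ replicate 1 (0.284), Rosa26 IFNγ replicate 2 (0.0523), Rosa26 vehicle replicate 1 (0.149) or Rosa26 vehicle replicate 2 (0.108), with 0.025 to 1 over all its alternatives. Sec61b lost its call without Rosa26 vehicle replicate 2 (0.0507), with 0.000519 to 1 over all its alternatives.

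The response to IFNγ differed between Cop1-loss and Rosa26 cells for 2 of the 31 genes by the interaction term, both toward a higher response in Cop1-loss cells (6.45%, against 3.38% of all genes tested), and 0 toward a lower one (against 2.36%), with 0 by DESeq2 and 3 at an unadjusted p under 0.05. Hsp90b1 rose with IFNγ in Cop1-loss cells (0.08 ± 0.0203, adjusted p = 0.00132) and was at -0.07 ± 0.0288 (adjusted p = 0.0707) in Rosa26 cells, a difference of 0.15 ± 0.0352 (adjusted p = 0.00576). It had 510.0 and 523 CPM in the sgRNA1 IFNγ libraries and 438 and 447 CPM in the sgRNA2 IFNγ libraries, against 431 and 438 CPM in the Rosa26 IFNγ libraries, and 471 and 476 CPM in the sgRNA1 vehicle libraries and 434 and 428 CPM in the sgRNA2 vehicle libraries, against 462 and 448 CPM in the Rosa26 vehicle libraries. For Calr the difference was 0.11 ± 0.0315 (adjusted p = 0.0268). The other 29 were not called, among them Hspa5 (-0.03 ± 0.0313, adjusted p = 0.657), Xbp1 (0.12 ± 0.0691, adjusted p = 0.35), Atf6 (-0.03 ± 0.0558, adjusted p = 0.867) and Ern1 (0.03 ± 0.0716, adjusted p = 0.866). The point estimate farthest from 0 was that of Dnajb9 (-0.27 ± 0.117, adjusted p = 0.186). These are values on the mean of the guides. With sgRNA1 alone both Hsp90b1 and Calr were called. With sgRNA2 alone neither was, and 0 of the 31 genes were called higher and 1 lower. The call of Hsp90b1 ended without Rosa26 IFNγ replicate 1 (0.0571) or Rosa26 vehicle replicate 1 (0.0753), with 0.00234 to 1 over all its alternatives, and that of Calr without sgRNA1 IFNγ replicate 1 (0.0631), sgRNA1 vehicle replicate 1 (0.0519), sgRNA1 vehicle replicate 2 (0.0545), sgRNA2 IFNγ replicate 2 (0.116), Rosa26 IFNγ replicate 1 (0.0681), Rosa26 IFNγ replicate 2 (0.158), Rosa26 vehicle replicate 1 (0.129) or Rosa26 vehicle replicate 2 (0.0826), with 0.00885 to 1 over all its alternatives, by edgeR's adjusted p.

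Of 69 tested genes of the same pathways outside the 31, 25 were higher and 11 lower with Cop1 loss in vehicle (36.2% and 15.9%, against 16.6% and 19.2% of all genes tested), and 27 higher and 13 lower with IFNγ (39.1% and 18.8%, against 19.8% and 20.7% of all genes tested). The decreases included 6 of the 7 transcripts listed here as PERK and ATF4 output. By edgeR 0 of the 7 rose, with 0 at an unadjusted p under 0.05 in vehicle and 0 with IFNγ. Atf3, a stress-induced repressor, had 45.9 and 48.5 CPM in the sgRNA1 IFNγ libraries and 54.2 and 50.1 CPM in the sgRNA2 IFNγ libraries, against 169 and 155 CPM in the Rosa26 IFNγ libraries. Chac1, which degrades glutathione, had 15.1 and 11.98 CPM in the sgRNA1 vehicle libraries and 16.8 and 15.8 CPM in the sgRNA2 vehicle libraries, against 40.3 and 38.2 CPM in the Rosa26 vehicle libraries. Trib3, a pseudokinase induced by ATF4 and CHOP, had 13.7 and 15.9 CPM in the sgRNA1 vehicle libraries and 16.5 and 18.3 CPM in the sgRNA2 vehicle libraries, against 36.4 and 40.1 CPM in the Rosa26 vehicle libraries. None of these overlapped. The median log2 change of the 7 was -1.17 in vehicle and -1.27 with IFNγ, where the phosphatase subunit gene Ppp1r15b was the one not called (named, like Ddit3, after its values were seen). Eif2ak3, which encodes PERK, and Herpud1 fell with them. Whether these decreases depend on each other, or on a change in PERK activity, was not tested.

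IFNγ raised 6 of the 7 in Cop1-loss cells (85.7%, against 18.1% of all genes tested, median 0.29). The exception was Ddit3, the gene of the transcription factor CHOP. In Rosa26 cells all 7 rose (100%, against 16.6% of all genes tested, median 0.73). The responses of Atf4 (-0.38 ± 0.0394, adjusted p = 2.4e-09), Atf3 (-0.54 ± 0.0828, adjusted p = 1.47e-05) and Ppp1r15a (-0.58 ± 0.109, adjusted p = 0.000405), the stress-induced phosphatase subunit GADD34, were smaller in Cop1-loss cells. For Cop1-loss cells all of these are means of the guides. Between the guides, sgRNA2 was above sgRNA1 for Atf4 in vehicle (0.18 ± 0.0331, adjusted p = 0.000214) and for Atf4, Chac1 and Ppp1r15b with IFNγ, while 8 of the 9 chaperones and cochaperones were lower with IFNγ.

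Among 14 further ER folding genes, 3 rose (21.4%) and 2 fell (14.3%) with Cop1 loss in vehicle. With IFNγ 6 rose (42.9%) and 2 fell (14.3%). For this list and the next, the shares of all genes tested were 16.6% higher and 19.2% lower in vehicle. With IFNγ they were 19.8% and 20.7%. Ero1l, the oxidase that recharges disulfide isomerases, fell in both (-0.39 ± 0.0353, adjusted p = 5.23e-12 in vehicle), and Uggt1, the glucosyltransferase that returns glycoproteins to calnexin and calreticulin, rose in both (0.21 ± 0.0258, adjusted p = 6.79e-09 in vehicle). Of 19 genes of translocation, signal peptide cleavage and N-glycosylation, 10 rose (52.6%) and 1 fell (5.26%) in vehicle, and 9 rose (47.4%) and 1 fell (5.26%) with IFNγ. They were led in vehicle by Ssr4 (0.32 ± 0.0448, adjusted p = 2.31e-07), a TRAP subunit, and Ostc (0.23 ± 0.0408, adjusted p = 1.52e-05), a subunit of oligosaccharyltransferase. Of 13 genes of ER to Golgi transport, 7 rose (53.8%) and 1 fell (7.69%) in vehicle. With IFNγ 6 rose (46.2%) and 1 fell (7.69%), and among those that rose was the cargo receptor gene Lman1 (0.30 ± 0.0378, adjusted p = 1.16e-08). Of 11 further degradation genes, 2 rose (18.2%) and 0 fell (0%) in vehicle and 3 rose (27.3%) and 2 fell (18.2%) with IFNγ. The ATPase gene Vcp was higher in both (0.17 ± 0.0234, adjusted p = 1.41e-07 in vehicle).

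Of 5 tested UPR factors and processing proteases, 3 rose (60%) and 1 fell (20%) with Cop1 loss in each treatment. The shares of all genes tested were 16.6% and 19.2% in vehicle and 19.8% and 20.7% with IFNγ. Mbtps1 and Mbtps2, which encode the Golgi proteases that cut ATF6, were higher in Cop1-loss than in Rosa26 cells under IFNγ, by 0.32 ± 0.0294 (adjusted p = 5.52e-12) and 0.41 ± 0.0478 (adjusted p = 1.92e-09), and their responses to IFNγ differed between the populations (0.25 ± 0.0408, adjusted p = 5.76e-05 and 0.25 ± 0.0673, adjusted p = 0.0158). Mbtps1 fell with IFNγ in Cop1-loss cells (-0.15 ± 0.0233, adjusted p = 9.08e-07) and in Rosa26 cells (-0.40 ± 0.0335, adjusted p = 3.13e-13). Creb3, an ER-bound transcription factor cut by the same proteases, was lower in Cop1-loss than in Rosa26 cells under IFNγ (-0.39 ± 0.0652, adjusted p = 4.57e-06) and rose with IFNγ in Rosa26 cells (0.60 ± 0.0772, adjusted p = 2.39e-08). In response to IFNγ 16 of the 69 rose and 10 fell in Cop1-loss cells (23.2% and 14.5%, against 18.1% and 16.1% of all genes tested), and 13 rose and 13 fell in Rosa26 cells (18.8% and 18.8%, against 16.6% and 16.2% of all genes tested).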

How the data were processed

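Libraries were made from total RNA with an Illumina TruSeq RNA kit, per the labels' protocols. The authors deposited 1 table of raw counts per gene symbol, with 1 column for each of the 12 libraries, and the submitters' processing notes name STAR 2.4.0, HTSeq, DESeq2 1.10 and the mouse build mm10. The sources used here give no strand setting, annotation or rule for multi-mapping reads, so genes overlapping on opposite strands and near-identical copies are uncertain. The last row, a total, entered neither library sizes nor tests. It matched the column sum in 11 of 12 libraries. In 26 rows the symbol reads as a date, and no listed gene is among them.

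Genes passing edgeR's filterByExpr (minimum count 10, minimum total 15) were fitted with TMM scaling, 6 group means over all 12 libraries and edgeR 4.0.16's robust quasi-likelihood test (R 4.3.3, limma 3.58.1), and 11904 genes were tested. P-values were adjusted by Benjamini-Hochberg over all of them, and a gene was called at an adjusted p under 0.05. Cop1-loss values are the mean of the 2 guides on the log2 scale. CPM values are relative to the TMM-scaled library total. Depth was 19378070 to 32609717 counts, and n is 2 libraries a group, with 6 residual degrees of freedom. Figures were drawn with matplotlib 3.10.9.

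Alternatives were RLE scaling, DESeq2 1.42.0, no filter, the replicate number as a block, the groups of a comparison alone, no robust option, a minimum change of 1.2-fold (glmTreat), each guide alone, each library left out and libraries summed per population. Over 15 pairs of groups the correlation of deviations of same-numbered libraries was -0.0298 to 0.0446, so they shared no visible shift over all genes. This cannot tell whether equal numbers mark a shared culture or batch, because a weak shift or one in few genes would not show. The libraries within each group showed more than sampling noise between them, and none was taken as a repeat of another. The scripts were tested on simulated data.

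Gene positions come from GENCODE M21, and promoter windows of 300 bases from RefSeq (GRCm38.p6, the same assembly as mm10), found for 26 of the 32 genes. The members, lists and motifs were chosen with earlier results of these data known. Full statistics were given for Hspa5, Xbp1, Atf6, Ern1, Eif2ak3 and up to 3 called genes of each subgroup with the smallest p per comparison, and up to 3 genes of each other list.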

Additional observations from a re-analysis of the deposited data

Results flagged for a closer look

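The IFNγ response differed between populations for 2 of the 31 genes by the interaction term of edgeR's quasi-likelihood test. That is 6.45% with a higher response, against 3.38% of all genes tested. For Hsp90b1 the response was higher in Cop1-loss than in Rosa26 cells by 0.148 on the log2 scale (adjusted p = 0.00576), and for Calr by 0.11 (adjusted p = 0.0268). These are means of the guides, and with sgRNA2 alone neither was called. Neither was called against a minimum change of 1.2-fold, and both calls could end when 1 library was left out, as given above.

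For Hspa5 and P4hb each Cop1 guide passed the test against Rosa26 and the guides had opposite signs, so the difference between the guides was tested. Hspa5 differed between sgRNA2 and sgRNA1 by -0.238 (adjusted p = 9.45e-09) in vehicle, and under IFNγ the difference was -0.208 (adjusted p = 1.57e-07). P4hb differed by -0.244 in vehicle (adjusted p = 2.11e-08).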

How the results depend on the processing

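With 2 libraries a group, variation between cultures was not measured. Leaving out 1 library, 2482 of 2604 values of the 31 genes kept their call or lack of it, 100 lost a call and 22 gained one. The sign turned in 0 of the 1248 such values of called changes and in 67 of the 1356 of changes not called. With 1 guide alone, the sign turned for 1 called change, Calr in vehicle, which was at -0.0295 with sgRNA2 (adjusted p = 0.43), and for 14 changes not called with sgRNA1 and 13 with sgRNA2. Of these 27, 3 passed the test with that guide: Hspa5 in vehicle at -0.10 with sgRNA2 (adjusted p = 0.00235), P4hb in vehicle at 0.0817 with sgRNA1 (0.0167) and Hspa5 with IFNγ at 0.0903 with sgRNA1 (0.0041), by edgeR.

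Counts of called genes moved by more than 1.5 times as follows, given as higher then lower. With a minimum change of 1.2-fold, Cop1 loss gave 0 and 2 in vehicle and 0 and 3 with IFNγ, IFNγ gave 0 and 0 in Cop1-loss and 0 and 0 in Rosa26 cells, the interaction gave 0 higher, and sgRNA2 against sgRNA1 gave 0 lower in vehicle and 0 and 1 with IFNγ. With the libraries of each population summed, Cop1 loss gave 0 and 2 in vehicle and 0 and 3 with IFNγ, IFNγ in Cop1-loss cells gave 0 and 0, and the interaction gave 0 higher, on fewer samples. With sgRNA2 alone, Cop1 loss gave 8 and 10 in vehicle and 8 higher with IFNγ, and the interaction gave 0 and 1. With sgRNA1 alone, Cop1 loss gave 2 lower in vehicle and IFNγ in Cop1-loss cells gave 3 lower. DESeq2 gave 2 lower for IFNγ in Rosa26 cells and 0 higher for sgRNA2 against sgRNA1 with IFNγ, where the fit without the robust option also gave 0. The cause was not tested.

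Leaving out 1 library, the counts ranged from 13 to 14 higher and 3 to 6 lower for Cop1 loss in vehicle, 14 to 15 and 6 to 8 with IFNγ, 10 to 13 and 3 to 5 for IFNγ in Cop1-loss cells, 7 to 12 and 1 to 5 in Rosa26 cells, 0 to 2 and 0 for the interaction, 0 and 9 to 11 for sgRNA2 against sgRNA1 in vehicle, and 0 to 1 and 11 to 18 with IFNγ. The replicate block, for numbers whose meaning the labels do not give, left 13 higher and 5 lower for Cop1 loss in vehicle and 12 and 5 for IFNγ in Rosa26 cells, and 216 of 217 values kept their call or lack of it. Over all genes, Cop1 loss in vehicle gave 1976 higher and 2282 lower, 227 and 472 with a minimum change of 1.2-fold, 328 and 537 with libraries summed, and 1316 higher without Rosa26 vehicle replicate 2.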
